A study of Mus musculus with 6 samples.

Results

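The 6 genes described here belong to the machinery of intestinal fluid secretion and were read in the small intestine of Cftr null and control mice: Cftr, Guca2b, Slc12a2, Aqp1, Aqp8 and Atp1b1. They were taken by name, as every probe set (the group of short probes that stands for 1 transcript on the array) annotated to exactly 1 of these symbols, which gave 10 of 12422 probe sets and 6 of 8251 named genes. Of the 10 probe sets, 7 were bright enough to be tested and 3 were not, and each of the 6 genes kept at least 1 tested probe set.

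Each of the 6 arrays carried total RNA of the whole small intestine of 1 mouse, 40 days old and congenic on the black6 background. There were 3 controls, Cftr(+/+), and 3 nulls, Cftr(-/-), with 2 males and 1 female in each group; control replicate 3 and null replicate 2 were the female mice. All 6 mice were given Peptamen, a liquid diet, from day 10 of life, so controls and nulls shared the diet that keeps the null gut from becoming obstructed. The labels do not name the allele or the part of the gene that was altered. Values are scaled array intensities in arbitrary units, and precision is limited by having 3 mice a group.

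Chloride secretion carries fluid into the gut lumen. On the basolateral side of the epithelial cell, the sodium pump, with its beta 1 subunit Atp1b1, keeps sodium low in the cell, and the cotransporter Slc12a2 uses that gradient to load the cell with chloride, together with sodium and potassium. On the apical side chloride and bicarbonate leave through Cftr, a channel opened by cyclic AMP-dependent and cyclic GMP-dependent phosphorylation. Uroguanylin, the peptide encoded by Guca2b, is released into the lumen by villus epithelial cells and raises cyclic GMP through the receptor guanylate cyclase C, encoded by Gucy2c. Water follows salt between the cells and through channels of the aquaporin family; Aqp1 is a water channel of endothelium and red blood cells, and Aqp8 one of epithelial cells, abundant in colon.

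Transcripts of 3 of the 6 genes fell in null mice: Cftr itself, Guca2b and Aqp1. The cotransporter Slc12a2 differed by less than the spread between mice, and neither Aqp8 nor the pump subunit Atp1b1 passed the test. Of the 7 tested probe sets 3 were called lower, where 1.87% of all 7601 tested probe sets were, and 0 were called higher (limma, adjusted p under 0.05 over all tested probe sets), where the background was 1.13%. At an unadjusted p under 0.05 the same test counted 3 lower and 0 higher, against 8.17% and 9.10% of all tested probe sets. The groups did not overlap in 3 of the 7, all of them lower in nulls, where 23.8% of all tested probe sets did not overlap in either direction and 10.8% were lower without overlap. The fitted change was below 0 in all 7 tested probe sets, where it was below 0 in 45.7% of all tested probe sets. Both tested probe sets of Aqp1 are among the 7, and the change of Slc12a2, at -0.01, turned sign under some alternatives. The median change of the 7 was -0.75 on the log2 scale, beside a median of 0.03 over all tested probe sets. Cftr is itself the gene altered in nulls, and the members were chosen with earlier results of these data known. These counts therefore describe the members and do not test them as a set. A fitted change is the null mean minus the control mean of log2(intensity + 12), which understates changes of dim probe sets.

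**Figure D1:**
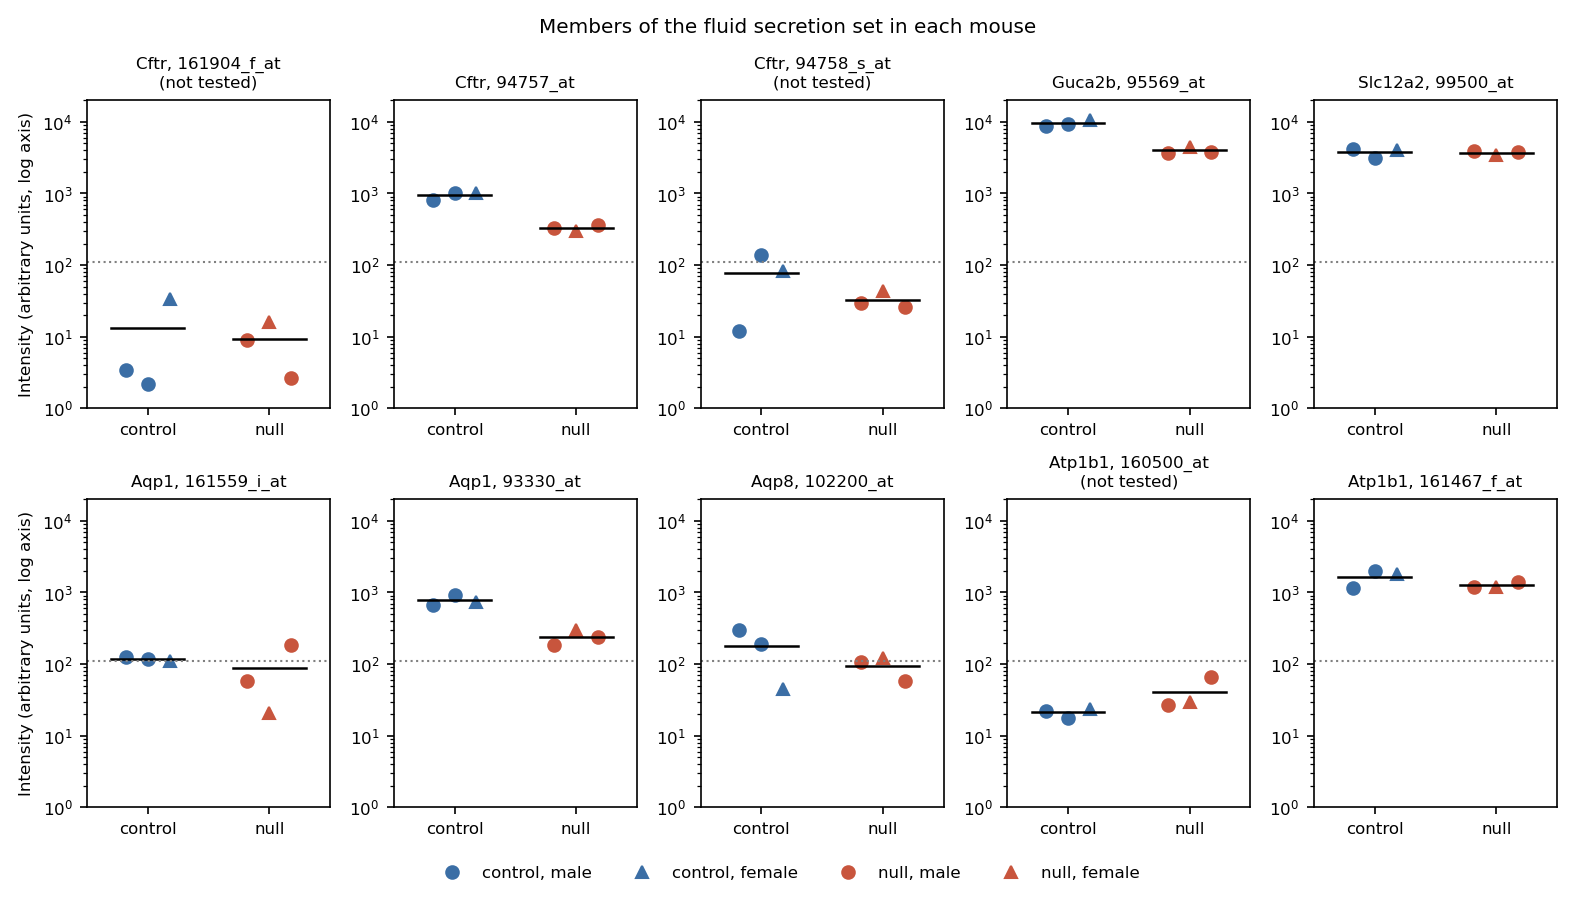
Intensity (arbitrary units, log axis) of each of the 10 member probe sets in each mouse; circles are males, triangles females, black bars group means and the dotted line the filter level of 109.7. The 3 null points lie below all 3 control points for Guca2b, the tested Cftr probe set and the brighter Aqp1 probe set. The groups overlap in the other 4 tested probe sets. The brighter Aqp1 probe set is the one called first in the text, and the dimmer, with the ending _i_at, is the second.

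The proximal promoters of the 3 genes called lower in nulls are shown, Cftr being the gene altered in nulls. Each is the 250 bases before the RefSeq start, in build GRCm38.p6 and 5′ to 3′ on the gene's strand. Capitals mark matches, on either strand, to 7 motifs: TATAAA, read by the TATA-binding protein, CCAAT, read by factor NF-Y, GGGCGG, the GC box read by Sp factors, GTTAAT, the half-site of HNF1 factors, TGACGTCA, the cyclic AMP response element, TGACATCA, a variant of that element, and GATAA, read by the GATA factors. The Cftr window is chr6:18170437-18170686, plus strand, that of Guca2b chr4:119658946-119659195, minus strand, and that of Aqp1 chr6:55336049-55336298, plus strand.
Cftr: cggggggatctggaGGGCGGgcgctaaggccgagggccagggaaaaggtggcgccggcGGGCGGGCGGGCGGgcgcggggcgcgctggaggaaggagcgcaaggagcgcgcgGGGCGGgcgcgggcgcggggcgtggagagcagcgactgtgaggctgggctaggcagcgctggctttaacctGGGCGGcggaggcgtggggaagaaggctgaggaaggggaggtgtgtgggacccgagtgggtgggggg
Guca2b: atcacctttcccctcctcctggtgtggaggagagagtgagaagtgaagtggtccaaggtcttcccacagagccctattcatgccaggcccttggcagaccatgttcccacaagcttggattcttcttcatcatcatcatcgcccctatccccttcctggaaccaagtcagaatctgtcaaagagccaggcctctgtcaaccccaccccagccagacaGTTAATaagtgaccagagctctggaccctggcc
Aqp1: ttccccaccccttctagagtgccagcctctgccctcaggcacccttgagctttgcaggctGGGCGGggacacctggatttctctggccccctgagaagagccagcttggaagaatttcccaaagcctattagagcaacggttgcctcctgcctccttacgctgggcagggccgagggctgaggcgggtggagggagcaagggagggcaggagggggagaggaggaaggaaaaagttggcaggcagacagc
The Cftr window was 76.4% G and C and held 6 GC boxes, some of them overlapping, and that of Aqp1 held 1. The Guca2b window held none; it held GTTAAT, from base 33 before the start. In Cftr 2 further matches lie after the RefSeq start, outside the printed stretch: CCAAT on the opposite strand, from base 2, and TGACATCA, from base 14. Over the 300 bases from 250 before to 50 after the start, 35.7% of 32851 mouse promoters held GGGCGG, 37.4% CCAAT, 7.1% GTTAAT and 3.62% TGACATCA. No motif of the 7 was found in the printed windows of all 3 genes, and a match of letters does not show that a factor binds. The Aqp8 and Atp1b1 promoters were searched in the same way: the 300 bases of Aqp8 held 0 of the motifs, and those of Atp1b1 held GGGCGG and CCAAT matches.

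Cftr, the chloride and bicarbonate channel, was read by its tested probe set at 801.6, 1017.5 and 1002.0 in control replicates 1 to 3 and at 325.9, 295.6 and 368.5 in null replicates 1 to 3. Every null lay below every control, and the lowest control was 2.18 times the highest null. Controls averaged 940.4 ± 120.4 and nulls 330.0 ± 36.6 (SD, n = 3 each), which left 35.1% of the control signal. The fitted log2 change was -1.47 (95% interval -1.81 to -1.14, SE 0.15, limma adjusted p = 0.00421), a 2.78-fold fall that ranked 64 among the falls of all 7601 tested probe sets. The signal left in nulls was above the filter level in each mouse. Since the altered part of the gene is not named in the labels, this probe set checks the genotype only as a difference between the groups.

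Both remaining Cftr probe sets fell under the filter. One, with the ending _s_at, which marks probes shared between transcripts, read 12, 139.9 and 82.2 in controls and 29.5, 43.1 and 25.8 in nulls, and the groups overlapped. The other, with the ending _f_at, which marks probes that match a family of sequences, read between 2.2 and 33.6 over the 6 mice. Only control replicate 2 exceeded 109.7 in either of them, and they give no second measure of the fall.

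Guca2b, the secretory peptide, varied little between mice of a group. Its probe set read 8717.8, 9287.9 and 10549.4 in controls and 3685.9, 4463.9 and 3822.7 in nulls. All nulls lay below all controls, with the female the highest mouse of each group, and the lowest control was 1.95 times the highest null. The mean fell from 9518 ± 937 (SD, n = 3) to 3991 ± 415 (SD, n = 3), to 41.9% of control. The fitted log2 change was -1.25 (95% interval -1.54 to -0.96, SE 0.13, limma adjusted p = 0.00421), or 2.38-fold. The change was -1.26 between males and -1.24 between females on the log2 scale.

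Villus enterocyte markers moved in the same direction as Guca2b. Of 12 such markers listed, 11 were on the array and tested, and the change was below 0 in 11 of 11. Akp3, an intestinal alkaline phosphatase, was the single one that passed the test. Over all tested genes 1.99% were called lower and 1.14% higher, and 45.7% of all tested probe sets had a change below 0. The summed intensity of the 11 markers lay between 68554 and 107956 in nulls and between 127605 and 148085 in controls, so that the groups did not overlap, and 64.8% of the control mean was left. No marker was at 0 in any mouse. The summed markers of crypt and cycling cells (6429 to 7332 in nulls, 5597 to 5950 in controls) and of smooth muscle (22472 to 27053 in nulls, 14759 to 20777 in controls) were higher in every null. Of 6 tested crypt and cycling markers 0 were called, and Ccnb2 made up 32.3% of their sum in controls. Without Ccnb2 the crypt sums overlapped, at 3950.9 to 4671.5 in nulls and 3533.6 to 4123.8 in controls. Actg2, a smooth muscle actin and the single smooth muscle marker called, was at 2904 in controls and 7351 in nulls on average (limma adjusted p = 0.0151). Its probe set has the ending _f_at, which marks probes that match a family of sequences. Without Actg2 the smooth muscle sums overlapped, at 16436 to 18471 in nulls and 12349 to 17061 in controls. With any 1 of the 11 villus enterocyte markers left out, their sums did not overlap and nulls kept 59.2% to 68.7% of control. The part of these shifts in the Guca2b and Cftr results was not tested, and in RNA of a whole organ fewer cells of a type and less RNA per cell cannot be told apart.

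The partners of Guca2b were read too. Guanylin, Guca2a, the related peptide of the gut, was not tested, with values from 12.9 to 60.1 over the 6 mice. The shared receptor Gucy2c was at 1988.1, 2454.7 and 2482.8 in controls and at 1698.1, 1554.2 and 1694.1 in nulls on its brighter probe set. The nulls lay below the controls, but the log2 change of -0.48 (95% interval -0.77 to -0.18) did not pass over all probe sets (limma adjusted p = 0.0990). A second, dimmer Gucy2c probe set overlapped between the groups, with a log2 change of -0.10 (SE 0.54). Prkg2, the cyclic GMP-dependent kinase that phosphorylates Cftr, was near the filter level, at 127.9 in controls and 115.4 in nulls on average.

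Aqp1, the water channel of endothelium, had the largest fitted fall of the 7 tested member probe sets on its first probe set, though not when its probe sets were averaged. The first probe set read 676.7, 919.2 and 743.9 in controls and 183.2, 297.5 and 236.4 in nulls. The lowest control was 2.27 times the highest null, and nulls averaged 30.6% of control (239.0 ± 57.2 against 779.9 ± 125.2, SD, n = 3 each). The fitted log2 change was -1.67 (95% interval -2.13 to -1.21, SE 0.20, limma adjusted p = 0.00704), or 3.18-fold. The intervals of the falls of Aqp1, Cftr and Guca2b overlapped, and differences between these falls were not tested.

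The second Aqp1 probe set, with the ending _i_at, which marks an incomplete set of probes, did not show the fall. It read 127.1, 117.3 and 109.4 in controls and 58.1, 20.9 and 185.2 in nulls; null replicate 3 was the highest of the 6 mice and null replicate 2 the lowest. Its log2 change was -0.75 (95% interval -2.14 to 0.63, limma adjusted p = 0.577), at readings close to the filter level of 109.7. When the Aqp1 probe sets were averaged, the gene's log2 change was -1.21 and the call ended (limma adjusted p = 0.0766).

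Markers of the cells known to carry Aqp1 overlapped between the groups. Of 12 blood vessel endothelium markers 11 were on the array and 8 tested, 6 of the 8 changes were below 0, and 0 passed the limma test in either direction. Of all tested genes 1.99% were called lower and 1.14% higher, so 0 of 8 is near those shares. The change was below 0 in 45.7% of all tested probe sets. Their summed intensity was 2243 to 2702 in nulls and 2353 to 2833 in controls, and the null mean was 98.5% of the control mean. Eng made up 38.3% of the control sum and was at 974.8 in controls and 1116 in nulls on average; without it the sums still overlapped (1205 to 1535 in nulls, 1403 to 1720 in controls) and the null mean was 88.6% of control. Pecam1 read 201.0 on average in nulls and 249.1 in controls. The 4 lymphatic endothelium markers on the array summed to 407.8 to 455.2 in nulls and 448.3 to 486.0 in controls, with Prox1, a defining marker, at 6.3 to 14.3 in the 6 mice. The 6 red blood cell markers summed to 2284 to 3630 in nulls and 2008 to 4521 in controls. The mesothelium list did not read that tissue: Krt19, a keratin also abundant in gut epithelium, made up 97.7% of its sum in controls, and the defining markers Msln (10.6 to 22.7) and Wt1 (41.5 to 75.1) were under the filter level in every mouse.

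Slc12a2, the sodium, potassium and chloride cotransporter that loads secretory cells, was alike in both groups within the spread. Its probe set read 4170.6, 3143.4 and 3994.8 in controls and 3968.6, 3399.2 and 3792.2 in nulls, and every null lay within the range of the controls. The means were 3770 ± 549 and 3720 ± 291.5 (SD, n = 3 each), and the log2 change was -0.01 (SE 0.14, limma adjusted p = 0.977). The 95% interval ran from 0.793-fold to 1.24-fold, so that a change as large as that of Cftr, Guca2b or Aqp1 lies outside it. Its sign turned under some alternatives.

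Atp1b1, the beta 1 subunit of the sodium pump, was read at 1146.1, 2015.5 and 1792.8 in controls and 1180.2, 1196.1 and 1417.2 in nulls by its tested probe set, with the ending _f_at. Control replicate 1 was the lowest of all 6 mice and lay apart from the other controls, so the groups overlapped. The log2 change was -0.35 (95% interval -0.84 to 0.14, limma adjusted p = 0.450). The second Atp1b1 probe set was at 17.9 to 23.3 in controls and 27.2 to 66.7 in nulls, all under the filter level, and was not tested.

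Aqp8, the epithelial water channel, was the most variable of the 7 tested member probe sets in controls, at 300.5, 192.1 and 45.1 in control replicates 1 to 3, against 107.7, 120.2 and 58.5 in null replicates 1 to 3. The coefficient of variation was 71.5% in controls, where it was 12.8% for Cftr and 9.85% for Guca2b on their tested probe sets. The log2 change was -0.57 (95% interval -1.96 to 0.83, limma adjusted p = 0.675). The female control was the lowest mouse, so the male controls lay above the male nulls and the female control lay below the female null. The interaction of genotype and sex was 2.67 (SE 0.72) on the log2 scale, with an unadjusted p of 0.0091 but a limma adjusted p of 0.9998 over all tested probe sets, and each group held 1 female. Of the 7 member probe sets it was the 1 with an unadjusted interaction p under 0.05, and over all 7601 probe sets 0 passed the adjusted threshold and 236 had an unadjusted p under 0.05. The interval of Aqp8 holds falls as large as those of Cftr, Guca2b and Aqp1, so neither a change of that size nor its absence was shown with this spread between controls. Leaving out 1 mouse moved the change to between -1.28 and -0.06.

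The other genes of salt and water movement on the array gave 1 further fall. Across lists of signals, basolateral transport, anion channels and exchangers, sodium absorption, aquaporins and claudins, 90 genes were listed, 56 were on the array and 43 were tested by their brightest tested probe set. Of the 43, 4 fell and 0 rose in the limma test, where 1.99% of all 5717 genes were called lower and 1.14% higher; 3 of the 4 are the genes above. At an unadjusted p under 0.05, 8 were lower and 3 higher, where 8.55% of all tested genes were lower and 9.08% higher. The groups did not overlap in 13 of the 43, or 10 of the 37 outside the 6 genes, against 24.5% of all tested genes. The median log2 change of the 37 was -0.03 and that of all genes 0.03. The lists, too, were chosen with earlier results of these data known.

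The further gene that fell was Pdzk1, the scaffold of the brush border whose PDZ domains bind Cftr and other apical transporters. Its brighter probe set read 3001.2, 2913.1 and 3032.3 in controls and 588.0, 1041.6 and 332.3 in nulls. The controls lay within a narrow range and the nulls were spread, with the female the highest null. The log2 change was -2.32 (SE 0.35, limma adjusted p = 0.0151), or 4.98-fold, and a second probe set gave -1.67 (SE 0.25, limma adjusted p = 0.0151). The call ended on both probe sets without control replicate 1 (adjusted p = 0.0649 on the brighter and 0.0589 on the dimmer) and without null replicate 1 (adjusted p = 0.0760 on each), while the log2 changes were -2.31 and -1.72 without the first and -2.31 and -1.60 without the second. Villus enterocyte markers moved with it, as given beside Guca2b, and their part was not tested.

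Among the 17 tested genes of signals that act on Cftr, 2 fell, Guca2b and Pdzk1, and 0 rose. At an unadjusted p under 0.05, 6 of the 17 were lower and 1 higher, beside the 8.55% and 9.08% of all genes. The related scaffold Slc9a3r1 (NHERF1) was at 13105 ± 2063 in controls and 9221 ± 1197 in nulls (SD, n = 3 each; limma adjusted p = 0.141), and ezrin, Ezr, which ties such scaffolds to actin, at 4298 ± 769 and 2930 ± 406 (adjusted p = 0.146). The nulls lay below the controls in both, but neither passed. Gnas, the G protein subunit that stimulates cyclic AMP synthesis, was at 8483 in controls, with a log2 change of -0.09.

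Of 10 tested basolateral genes, 0 fell and 0 rose in the limma test, where 1.99% of all genes were called lower and 1.14% higher. At an unadjusted p under 0.05 there was 1 higher and 0 lower, beside 9.08% and 8.55% of all genes. Counts this small are near those shares. The pump subunit Atp1b3 was at 1261 ± 35.1 in controls and 1518 ± 183 in nulls (SD, n = 3 each; log2 change 0.26, adjusted p = 0.326). The potassium channels Kcnq1 and Kcnn4, which let potassium back out of the cell, had log2 changes of -0.07 and 0.26 on their brightest probe sets. A second Kcnq1 probe set of nearly equal brightness had a log2 change of 0.11. Wnk1, a kinase upstream of the cotransporter, had -0.26 on its brightest probe set.

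Of 7 tested channel and exchanger genes, Cftr fell and 0 rose in the limma test, and the same held at an unadjusted p under 0.05. Among all genes 1.99% were called lower and 1.14% higher, and 8.55% and 9.08% at the unadjusted threshold. Clca1, a secreted goblet cell protein of the calcium-activated chloride channel regulator family, was at 15682 in controls with a log2 change of 0.29. Of the chloride and proton exchanger Clcn3, 4 probe sets were tested: the brightest had a log2 change of 0.11, and the changes of the others ran from -0.64 (adjusted p = 0.172, the groups not overlapping) to 0.36. Clcn3 on its brightest probe set and the anion exchanger Slc4a2 (0.17) did not pass, nor did the sodium and bicarbonate cotransporter Slc4a4 (-0.07, 95% interval -0.40 to 0.26).

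Aqp7, a channel for water and glycerol, and the water channel Aqp4 were read beside Aqp1 and Aqp8. Aqp7 was at 252.0 ± 48.9 in controls and 205.5 ± 44.1 in nulls, and Aqp4 at 223.9 ± 33.8 and 218.4 ± 14.5 (SD, n = 3 each), and neither passed. The glucose and sodium cotransporter Slc5a1, the single tested gene of sodium absorption, had a log2 change of -0.31 (adjusted p = 0.372). Of 4 tested claudins, 0 passed in the limma test and 1 was higher at an unadjusted p under 0.05: Cldn2, which forms a pore for sodium between cells, at 262.8, 606.5 and 406.9 in controls and 709.5, 702.9 and 1388.2 in nulls (log2 change 1.11, adjusted p = 0.155). Its groups did not overlap, as in 24.5% of all tested genes. Of all tested genes 9.08% were higher at an unadjusted p under 0.05, and 1.99% and 1.14% were called lower and higher. Cldn3, Cldn4 and Cldn7, which seal or line epithelial junctions, had log2 changes of 0.13, -0.41 and 0.14.

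**Figure D2:**
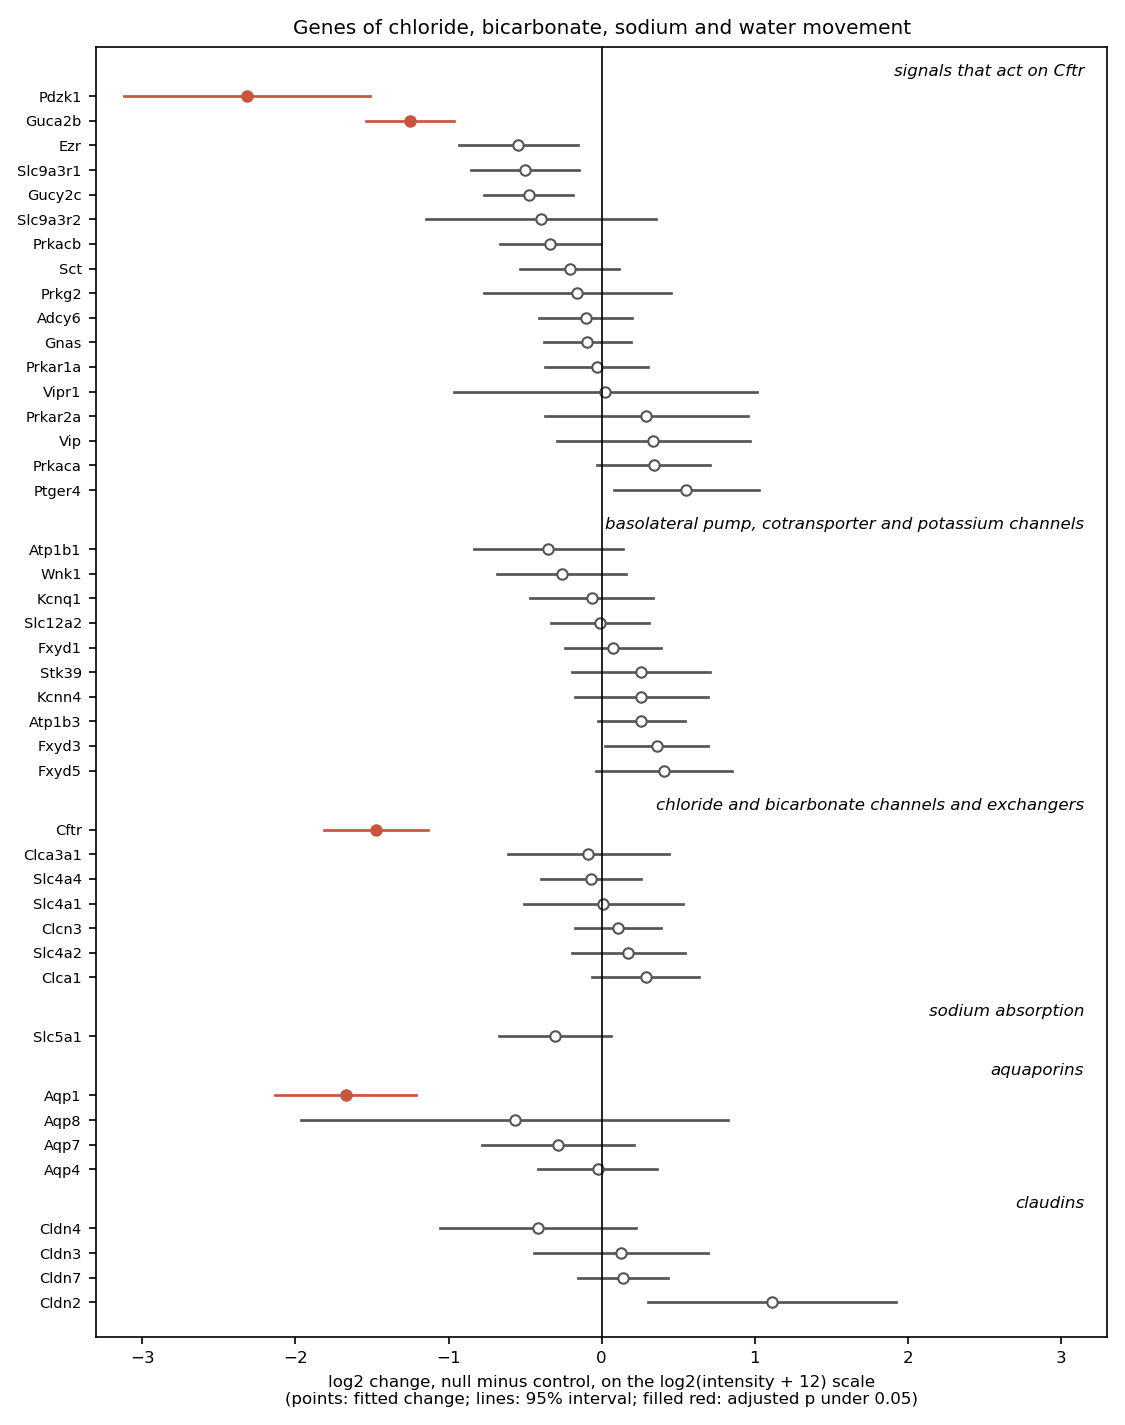
Fitted log2 change, null minus control, of the 43 tested genes with 95% intervals, each by its brightest tested probe set and ordered within its list; filled red points have a limma adjusted p under 0.05. Cftr, Guca2b, Aqp1 and Pdzk1 are the filled points, all below 0.

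The genes whose readings followed those of the 3 lower members most closely were found over the 6 mice among 5716 other genes. Likeness was the root mean square difference between profiles, each taken as log2(intensity + 12) minus its mean over the 3 controls. Nearest to Cftr were Ppara, a nuclear receptor of fatty acid metabolism, at 0.23, Guca2b at 0.24 and the D-amino acid oxidase Dao at 0.27. Nearest to Guca2b were Scp2, a sterol carrier protein, at 0.17, Angptl4, a secreted inhibitor of lipoprotein lipase, at 0.19, and Peg3 at 0.20. Nearest to Aqp1 were the homeobox gene Hoxa4 at 0.13, the carboxylesterase Ces2g at 0.16 and the glutathione transferase Gstt1 at 0.20. Hoxa4 read 155.4 to 207.3 in controls and 33.1 to 53.2 in nulls, so it passed the filter only through the controls. Hoxa4 and Aqp1 lie on chromosome 6, as does Cftr, and the other genes named here lie on other chromosomes. The part of this shared location in their falls was not tested, and the labels do not describe that chromosome in these congenic mice. With 6 mice in 2 groups, the fall between the groups sets most of this likeness, and no test was made of it.

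**Figure D3:**
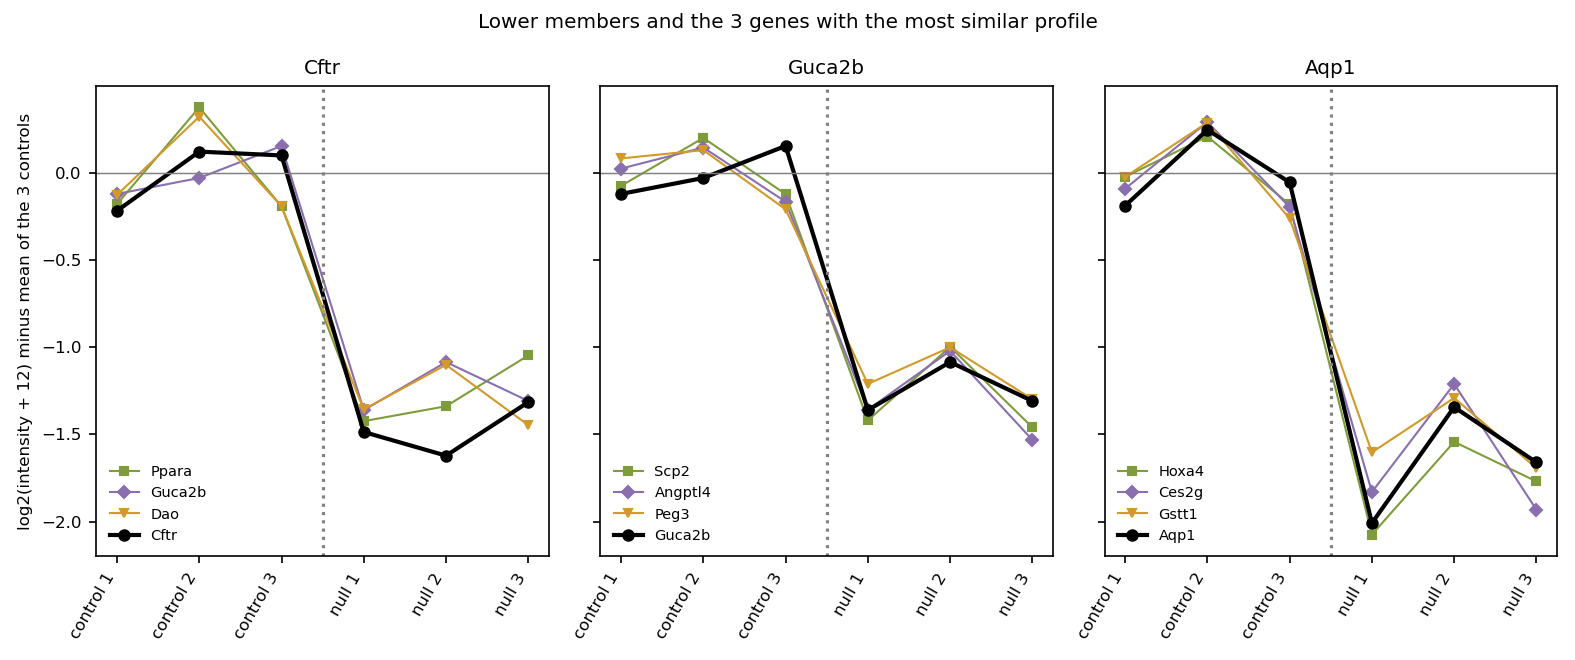
Log2(intensity + 12) minus the mean of the 3 controls, in each mouse, for Cftr, Guca2b and Aqp1 (black) and for the 3 genes most like each. On the first probe set Aqp1 was highest in null replicate 2 among the nulls, as was Guca2b, whereas Cftr was lowest there.

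The order among nulls differed between the members. Null replicate 2, the female, had the lowest reading of the nulls on the tested Cftr probe set and the highest on that of Guca2b and on the first Aqp1 probe set, but the lowest on the second Aqp1 probe set. Its summed villus enterocyte markers were also the highest of the nulls, at 107956 against 96787 in null replicate 1 and 68554 in null replicate 3. In males alone the log2 changes were -1.35 for Cftr, -1.26 for Guca2b and -1.86 for the first Aqp1 probe set, and between the females they were -1.72, -1.24 and -1.29. On the second Aqp1 probe set they were -0.19 in males and -1.88 between the females. The interaction of genotype and sex passed for none of the 7 member probe sets (limma, adjusted p = 0.9998 each).

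**Figure D4:**
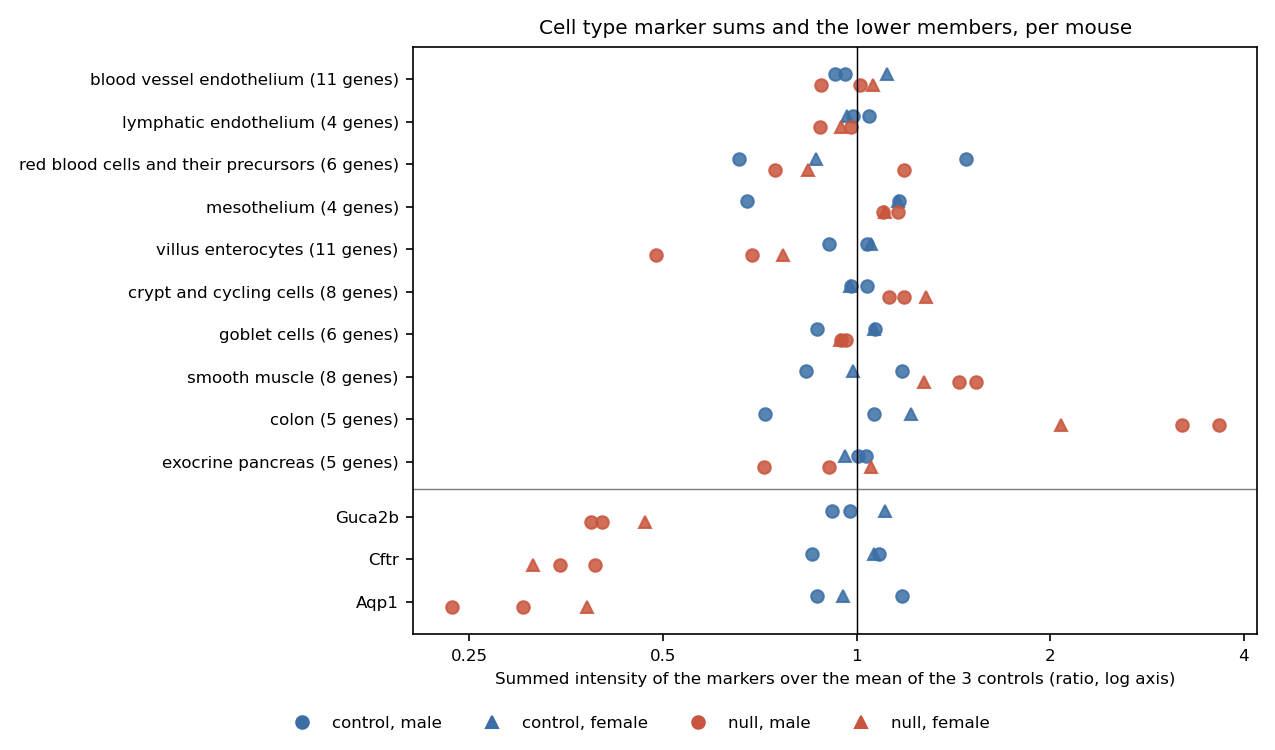
Summed intensity of each marker list in each mouse over the mean of the 3 controls (ratio, log axis), with Guca2b, Cftr and Aqp1 below the line; circles are males and triangles females. Villus enterocyte sums lie lower in nulls, crypt, smooth muscle and colon sums higher, and the endothelial, red blood cell, mesothelium, goblet and pancreas sums overlap. Crypt sums without Ccnb2, smooth muscle sums without Actg2 and colon sums without Car4 (not drawn) overlap as well.

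Of the colon markers 5 of 8 were on the array and 2 were tested. Their sum (2796 to 4909 in nulls, 968.1 to 1631 in controls) was mostly that of Car4, a carbonic anhydrase that small intestine can also express, while Car1 was at 11.5 to 102.8 in nulls and 19.6 to 25.3 in controls, under the filter level. The goblet cell sum, at 68067 to 69539 in nulls, lay within that of controls. On each array the 2%-trimmed mean of all probe sets was 500.3. The signal of 3' over 5' probes was 1.12 to 1.2 for actin and 0.75 to 0.83 for Gapdh.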

How the data were processed

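Total RNA of the small intestine, 1 mouse per array, was prepared with TRIzol, per the labels. The deposited values are probe set intensity values of 1-colour arrays on a linear scale; the steps from scan to value are not given in the sources used here, and equal trimmed means show that the authors' values were scaled before deposit. Probe sets were named from GEO's platform annotation and promoters from RefSeq (GRCm38.p6), which held 5 of the 6 members. Values were used as log2(intensity + 12), 12 being the 10th percentile. A probe set was tested if it exceeded 109.7, the 40th percentile, in at least 3 of 6 arrays: 7601 of 12422, after 66 control probe sets were set aside.

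The groups were compared by limma 3.58.1 under R 4.3.3, with eBayes and its trend option. Two-sided p-values were adjusted by Benjamini-Hochberg across every tested probe set, and the threshold was 0.05. A second fit tested genotype by sex. Exact permutation of 3 against 3 mice cannot go below p = 0.1 and was not used. The functions were checked on simulated data. No pairing or batch is stated, and replicates were numbered in accession order. Each array is a separate mouse.

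The members and lists were chosen with earlier results of these data known. Named were all member probe sets, list genes past the threshold, up to 4 of the brightest genes of each list, and the 3 genes most like each lower member; Guca2a, Gucy2c, Prkg2, Kcnq1, Kcnn4, Slc4a4, the marker genes and the motifs were chosen after values or sequences were seen. Alternatives were quantile normalization, equal medians, pseudocounts of 3 and 48, no filter, a filter at 288.7, males only, sex as a covariate, eBayes without trend or with robust variance, a mean over a gene's probe sets, and leaving out each mouse. Leaving each marker out of its list was added after seeing the data.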

Additional observations from a re-analysis of the deposited data

Results flagged for a closer look

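Aqp8, which passed no test, had differences of opposite sign in the sexes. Its log2 difference was -1.46 between males, with controls at 192.1 and 300.5 and nulls at 58.5 and 107.7, and 1.21 between a single female control, at 45.1, and a single female null, at 120.2. The difference between the sexes was 2.67 (SE 0.72; limma adjusted p = 0.9998). Opposite signs of smaller size, with the male groups not overlapping, were seen for Clca1 (log2 difference 0.44 in males, -0.01 between the females), Slc4a2 (0.33 and -0.14) and Cldn7, a claudin of epithelial junctions (0.23 and -0.03). Between the single females the log2 differences of Clca1 and Cldn7 were close to 0. None of these differences passed the interaction test (limma adjusted p = 0.9998 each), and each sex and genotype held at most 2 mice.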

How the results depend on the processing

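Over the 16 alternatives, the log2 change of Cftr ran from -1.58 to -1.35, that of Guca2b from -1.34 to -1.18 and that of Aqp1 (first probe set) from -1.86 to -1.50, and each passed in all 16 (highest adjusted p = 0.0286, 0.0315 and 0.0315). Their groups do not overlap, so leaving out a mouse could not turn a direction. The count of lower member probe sets was 3 in every alternative, and that of lower pathway genes 3 to 4, with Pdzk1 lost without control replicate 1 or null replicate 1, and Aqp1 lost with a mean over probe sets. The change of Slc12a2, near 0, turned to 0.032 with quantile normalization and 0.10 in males only, and ran from -0.14 to 0.067 with each mouse left out; the cause was not tested. The interaction of Guca2b, 0.02, turned to -0.073 with equal medians. The second Aqp1 probe set, Aqp8 and Atp1b1 passed in none. Leaving out 1 mouse moved them over 1.5 times: the second Aqp1 probe set to -0.14 without null replicate 2 and -1.43 without null replicate 3, Aqp8 to -0.058 (control replicate 1 left out) and -1.28 (control replicate 3 left out), and Atp1b1 to -0.18 (control replicate 2 left out) and -0.59 (control replicate 1 left out). With the filter at 288.7, the second Aqp1 probe set and Aqp8 were not tested. No paired analysis was possible because the labels carry no replicate numbers that groups share; some array titles are codes with letters in common across groups, but no label says what the codes mean. Signal limits Aqp8, Guca2a and the dim probe sets, which lie near or under the filter level.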
